A study of Homo sapiens with 4 samples.

Results

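Laminins are the scaffold proteins of basement membranes, the sheets of matrix on which epithelial cells rest. Of 34080 genes in the deposited tables, 8 that encode laminin chains are described here, namely LAMA1, LAMA3, LAMA4, LAMA5, LAMB1, LAMB2, LAMB3 and LAMC1. These 8 were chosen by gene name, at a time when their counts in Doxy(+) and Doxy(-) cells had already been seen, and so was the split of the chains of laminin-332 from the others. The contrast itself is therefore given as a description of the members, with no test.

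The cells were HK-2, a line immortalised from human kidney proximal tubule epithelium, carrying HA-tagged PRCC-TFE3 under a Tet-On promoter. PRCC-TFE3 is the fusion of the PRCC protein with the transcription factor TFE3 that is found in a subset of kidney cancers. All cells carried the transgene. Doxy(+) cells received 0.2 microg/ml of doxycycline for 24 h and Doxy(-) cells received none, with 2 libraries of each, numbered 1 and 2. HK-2 cells without the transgene were not analysed here, so the effects of the drug and of the fusion protein cannot be told apart. Whether the line was 1 clone, and whether libraries 1 and 2 came from separate cultures, is not given in the sources used here, so p-values measure only the spread between these libraries. Polyadenylated RNA was sequenced, with 12654233 to 15012743 estimated reads on genes per library.

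A laminin is a cross-shaped trimer of 1 alpha, 1 beta and 1 gamma chain, wound together along a coiled coil. The alpha chain carries the globular end that binds integrins and dystroglycan on the cell, while the short arms of many chains link laminins into a network. LAMA3 and LAMB3 encode the alpha and the beta chain of laminin-332, which anchors stratified and other epithelia through hemidesmosomes, and laminins with the alpha 5 chain are typical of mature kidney tubule and glomerular basement membranes. LAMA2, LAMB4 and LAMC3 are not among the 8 genes, and their values are given beside the members.

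TFE3, whose reads include those of the transgene, stood at 66.9 and 69.0 CPM (counts scaled to a fixed library total of reads on genes, with TMM factors) in Doxy(-) against 367 and 322 CPM in Doxy(+). This was a log2 fold change, Doxy(+) over Doxy(-), of 2.34 (SE 0.072, edgeR quasi-likelihood adjusted p 4.78e-05). PRCC stood at 50.2 and 47.2 CPM in Doxy(-) against 47.7 and 60.1 CPM in Doxy(+) (log2 fold change 0.15, SE 0.11, edgeR adjusted p 0.413). Of 7 proximal tubule markers 4 passed the low-count filter, with summed levels of 74.6 to 74.7 CPM in Doxy(-) and 83.5 to 90.5 CPM in Doxy(+). LRP2, ANPEP and AQP1 held at most 3 reads in any library, and these sums rest mostly on GGT1, with CUBN, SLC34A1 and SLC5A2 low. Of 6 simple epithelium markers, KRT8, KRT18, KRT19 and EPCAM stood at 98.0 CPM or more in every library, KRT7 at 4.10 to 5.97 CPM and CDH1, E-cadherin, at 0.458 to 0.817 CPM, too low to be tested. KRT8, KRT18 and KRT19 fell, taking the sum of 6 genes from between 1376 and 1395 CPM to between 1113 and 1118 CPM. Of 5 basal epithelium markers 1 was tested and did not pass, with sums of 8.66 to 10.96 CPM in Doxy(-) and 7.12 to 9.56 CPM in Doxy(+), and KRT5 and KRT14 were at 0 in all 4 libraries. Fibroblast markers summed to 187 to 198 CPM in Doxy(-) and 205 to 207 CPM in Doxy(+), mostly on LUM, with COL1A1 lower and COL3A1 at 0. Endothelial markers summed to at most 1.05 CPM with CDH5 and KDR at 0, and leukocyte markers to 144 to 150 CPM in Doxy(-) and 190 to 191 CPM in Doxy(+), nearly all on CD68, which rose, with CD3E at 0. The part of these shifts in the values of the laminin genes was not tested.

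Most laminin chain genes were lower in Doxy(+) cells, and LAMA1 alone among the members was higher. Of the 8 genes, 7 passed the low-count filter. At an adjusted p under 0.05, 5 of the 7 were lower (LAMA3, LAMA5, LAMB2, LAMB3 and LAMC1) and 1 was higher (LAMA1), where 9.53% of all 13569 tested genes were lower and 9.76% higher. Past both limits of the study, an adjusted p under 0.05 and a log2 fold change over 1 in size, there were 0 of the 7 by edgeR and 0 by DESeq2, with 6 at an unadjusted p under 0.05 by each tool, against 1.98% of all genes past both. The CPM values of the groups did not overlap in 6 of the 7, as in 61.1% of all tested genes. The median log2 fold change of the 7 was -0.20, and that of all tested genes was 0.0006. Nothing is read from these shares, since the rule used the same contrast. In bulk RNA, fewer cells that express a gene and less of its RNA per cell cannot be told apart.

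**Figure D1:**
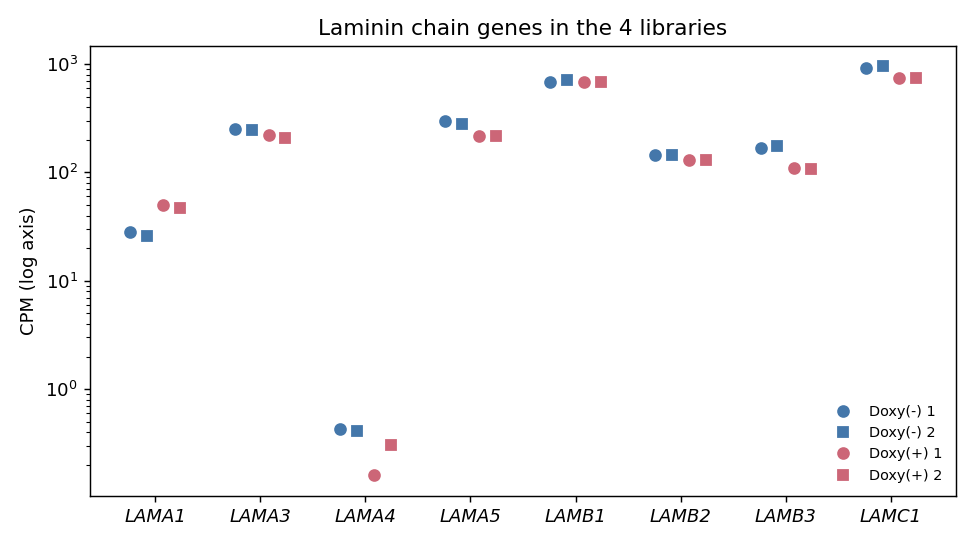
Level of each of the 8 laminin chain genes in each library, in CPM on a log axis. Circles are the libraries numbered 1, squares those numbered 2, blue is Doxy(-) and red is Doxy(+). LAMC1 and LAMB1 are the highest, LAMA4 lies under 0.5 CPM, LAMA1 sits higher in both Doxy(+) libraries, and the 4 values of LAMB1 lie together.

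Per length, the gamma 1 and beta 1 chains led the members. In TPM (abundance per length, scaled to the same total in each library and summed over the transcripts of a gene), the Doxy(-) means were 341 ± 47.1 for LAMC1, 215 ± 9.51 for LAMB1, 80.5 ± 3.83 for LAMB2, 67.6 ± 1.73 for LAMB3, 67.3 ± 4.88 for LAMA5, 56.4 ± 7.71 for LAMA3 and 5.44 ± 0.676 for LAMA1 (SD, n = 2 each). The neighbours LAMB3 and LAMA5 overlapped, while every other neighbouring pair was apart in both libraries. LAMA5 and LAMA3 were so only narrowly, at 63.8 TPM for the lower LAMA5 value and 61.9 TPM for the higher LAMA3 value. In Doxy(+) the order of the means was LAMC1 (257 TPM), LAMB1 (216 TPM), LAMB2 (70.6 TPM), LAMA3 (50.3 TPM), LAMB3 (43.1 TPM), LAMA5 (42.3 TPM) and LAMA1 (8.40 TPM), so LAMB3 and LAMA5 stood below LAMA3 there. The order depended on which transcripts were counted. With protein-coding transcripts alone, LAMC1 (188 TPM) and LAMB1 (178 TPM) overlapped in Doxy(-). There LAMB3 stayed at 67.6 TPM, and LAMB2 dropped to 36.5 TPM, beside LAMA3 at 36.0 TPM and LAMA5 at 34.8 TPM. In Doxy(+), counted in this way, LAMB3 stood above LAMA3, at 43.2 and 43.0 against 28.0 and 36.8 TPM. LAMB1 likewise stood above LAMC1 there, with means of 180 and 144 TPM.

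The alpha chains came first by role. LAMA1 (hg38, chromosome 18, 6941742 to 7117797, minus strand), the alpha chain of laminin-111 of the early embryo and of developing tubules, stood at 28.1 and 25.8 CPM in Doxy(-) against 50.4 and 46.5 CPM in Doxy(+). Both Doxy(+) libraries lay above both Doxy(-) libraries. The means were 26.9 ± 1.59 and 48.4 ± 2.72 CPM (SD, n = 2), a log2 fold change of 0.85 (SE 0.0758), or 1.8-fold. A rise of this size or more was seen in 3.63% of all tested genes. On TPM summed over all transcripts the difference was smaller, 0.55 with limma on log2(TPM + 1), where LAMA1 was no longer called. With protein-coding transcripts alone, LAMA1 stood at 2.13 and 2.03 TPM in Doxy(-) against 5.99 and 5.41 TPM in Doxy(+).

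The reads of LAMA1 were divided between a full-length coding transcript and forms that retain introns. LAMA1-201, the coding transcript, held 183 and 201 reads in Doxy(-) and 500 and 472 reads in Doxy(+), or 14.2 and 13.7 against 38.8 and 35.2 CPM. LAMA1-207, a nearly full-length form with a retained intron that differs from LAMA1-201 in 976 bases of its own, went the other way, with 12.5 and 10.1 CPM in Doxy(-) and 9.65 and 8.63 CPM in Doxy(+). The coding transcript thus took 50.6% (95% Wilson interval 45.4 to 55.7) and 53.0% (48.0 to 58.0) of LAMA1 reads in Doxy(-), and 77.2% (73.8 to 80.2) and 75.6% (72.1 to 78.8) in Doxy(+). These intervals cover counting error only and leave out the error of dividing reads between transcripts. Counted on the coding transcript alone, the log2 fold change of LAMA1 was 1.41, which put 1 of the 7 genes past both limits, a count chosen after the data were seen.

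LAMA3 (chromosome 18, 23689453 to 23956222, plus strand), the alpha chain of laminin-332, stood at 249.7 and 245.5 CPM in Doxy(-) against 223 and 209 CPM in Doxy(+). The groups did not overlap, and the difference was small, with a log2 fold change of -0.20 (SE 0.0424). Its call was lost without Doxy(+) 1, at -0.24, and without Doxy(+) 2, at -0.15. In TPM the groups overlapped, at 61.9 and 50.9 TPM in Doxy(-) against 45.9 and 54.6 TPM in Doxy(+).

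LAMA3 has an upstream start, which gives a long alpha 3 chain, and an internal start, which gives the short alpha 3A chain that laminin-332 is best known for. Nearly all LAMA3 reads that were placed on a full-length coding transcript fell on the long forms. LAMA3-202, the longest, held 143 and 131 CPM in Doxy(-) and 78.6 and 101 CPM in Doxy(+). LAMA3-203, a long form that skips bases of LAMA3-202 and has 0 exon bases of its own, held 53.2 and 51.1 CPM in Doxy(-) and 93.3 and 54.9 CPM in Doxy(+). The 2 Doxy(+) libraries thus divided the long forms differently, and LAMA3-203 in Doxy(+) 2 was close to its Doxy(-) values. LAMA3-201, the short form, has 196 bases that LAMA3-202 lacks and held at most 0.412 estimated reads in any library. A count of 0 allows up to 3 reads, or 0.204 to 0.233 CPM across the 4 libraries. LAMA3-210, a shorter form without a defined coding sequence, held 40.6 and 55.6 CPM in Doxy(-) and 46.1 and 40.2 CPM in Doxy(+), and its groups overlapped.

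LAMA5 (chromosome 20, 62307955 to 62367312, minus strand), the alpha chain of laminin-511 and laminin-521, stood at 297 and 280 CPM in Doxy(-) against 218 and 215 CPM in Doxy(+). Both Doxy(+) libraries were lower, the means were 289 ± 11.9 and 217 ± 1.98 CPM, and the log2 fold change was -0.41 (SE 0.0404). With counts scaled by transcript length it was -0.71. In CPM the main coding transcript LAMA5-201 carried most of the difference. It held 283 and 262 CPM in Doxy(-) against 209 and 206 CPM in Doxy(+). In TPM it carried a smaller part, at 35.8 and 32.9 TPM in Doxy(-) against 27.2 and 26.8 TPM in Doxy(+). The gene sum there was 70.7 and 63.8 TPM in Doxy(-) against 42.7 and 41.8 TPM in Doxy(+). Exons of LAMA5 share 244 bases with ADRM1 on the other strand, and whether the counting used the strand is not given in the sources used here.

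LAMA4 (chromosome 6, 112107931 to 112254939, minus strand), an alpha chain of endothelial and mesenchymal matrix, was close to absent. Its estimated counts were 5.5 and 6 in Doxy(-) and 2.06 and 4.06 in Doxy(+), all on LAMA4-214, a form with a retained intron. The coding transcripts of LAMA4 were at 0 reads in all 4 libraries, too few at this depth for a difference to be detectable. LAMA2, the alpha chain of muscle laminin and not a member, stood at 3.65 and 4.22 CPM in Doxy(-) against 3.88 and 3.798 CPM in Doxy(+), with overlapping groups and a log2 fold change of -0.04. In TPM its groups were apart, at 3.25 and 2.83 against 1.67 and 1.62 TPM. Its log2 fold change was -0.61 and -0.84 by limma and -0.93 with length-scaled counts, without a call in any of the 3. The full-length LAMA2-201 overlapped, at 0.47 and 0.53 TPM in Doxy(-) against 0.56 and 0.53 TPM in Doxy(+). The rest of the TPM lay on LAMA2-203 and LAMA2-204, of 373 and 571 bases, with at most 6.93 reads each in any library.

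Of the beta chains, LAMB3 showed the largest difference. LAMB3 (chromosome 1, 209614870 to 209652425, minus strand), the beta chain of laminin-332, stood at 168 and 175 CPM in Doxy(-) against 110 and 107 CPM in Doxy(+). Both Doxy(+) libraries lay well below both Doxy(-) libraries, with means of 172 ± 4.48 and 108 ± 2.07 CPM. The log2 fold change was -0.67 (SE 0.0422), or 0.63-fold, and it ranged from -0.70 to -0.64 over 14 alternatives. A fall of this size or more was seen in 3.12% of all tested genes.

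The lower level of LAMB3 was that of its most upstream transcript. LAMB3-201, which starts at 209652425 with a first exon from 209652369 to 209652425, held 125 and 129 CPM in Doxy(-) and 68.1 and 56.5 CPM in Doxy(+). LAMB3-203, which starts inside the gene at 209651334 with a first exon from 209650917 to 209651334, held 36.8 and 42.3 CPM in Doxy(-) and 39.3 and 44.9 CPM in Doxy(+), so its groups overlapped. LAMB3-203 took 21.9% (95% Wilson interval 20.2 to 23.7) and 24.2% (22.6 to 25.9) of LAMB3 reads in Doxy(-), and 35.9% (33.4 to 38.4) and 42.0% (39.5 to 44.6) in Doxy(+). The transcripts share most of their sequence, since LAMB3-201 has 62 exon bases of its own and LAMB3-203 has 353. The shares hence rest on few distinguishing bases. The 250 bases before 2 of the RefSeq starts of LAMB3 (GRCh38.p14, read 5′ to 3′ on the minus strand) and before the start of the short form of LAMA3 (plus strand) are shown because they lie before the starts of the transcripts set apart above. RefSeq places the internal start of LAMB3 at 209651374, upstream of that of LAMB3-203. Capitals mark matches on either strand to CACGTG and CATGTG, core motifs that TFE3 and its relatives can bind, to TGANTCA, the motif of AP-1, and to GGGCGG, the motif of SP1.
LAMB3 upstream start, chr1:209652426-209652675: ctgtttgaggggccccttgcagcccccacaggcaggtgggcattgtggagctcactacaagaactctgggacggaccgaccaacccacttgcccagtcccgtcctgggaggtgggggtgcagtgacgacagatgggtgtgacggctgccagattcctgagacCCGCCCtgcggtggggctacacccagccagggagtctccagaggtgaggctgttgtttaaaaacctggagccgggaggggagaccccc
LAMB3 internal start, chr1:209651375-209651624: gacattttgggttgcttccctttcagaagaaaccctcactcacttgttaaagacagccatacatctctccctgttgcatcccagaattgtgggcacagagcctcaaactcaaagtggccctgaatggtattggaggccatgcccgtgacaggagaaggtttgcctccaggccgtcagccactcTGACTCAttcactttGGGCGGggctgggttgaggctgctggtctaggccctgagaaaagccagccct
LAMA3 short-form start, chr18:23872770-23873019: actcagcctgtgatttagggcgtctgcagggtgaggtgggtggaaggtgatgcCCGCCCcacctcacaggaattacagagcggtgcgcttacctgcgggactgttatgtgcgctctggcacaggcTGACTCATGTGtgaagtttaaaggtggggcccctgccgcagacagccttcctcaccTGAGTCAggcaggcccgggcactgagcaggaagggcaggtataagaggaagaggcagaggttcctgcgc

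The upstream window of LAMB3 held 1 GGGCGG, 88 bases before the start, and no other of these letters. The internal window of LAMB3 held 1 TGANTCA, 67 bases before the start, and 1 GGGCGG, 52 bases before it. The window of the LAMA3 short form held 2 TGANTCA, 125 and 69 bases before the start, with 1 CATGTG at 120 bases that overlaps the first of them, and 1 GGGCGG at 197 bases. Among 35116 windows of 250 bases in the RefSeq promoter table, 6.57% held TGANTCA, 9.42% CATGTG, 6.34% CACGTG and 42.6% GGGCGG. Of the 8 members 7 had an entry, with 9 windows in all, and 0 of the 9 held CACGTG. The member without an entry was LAMA1, the only higher one. The upstream start of LAMA3, that of its long forms, had no window either, so the windows say nothing about these starts. A match is a description of the letters only, and the short form of LAMA3 was at most at the floor in all 4 libraries.

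**Figure D2:**
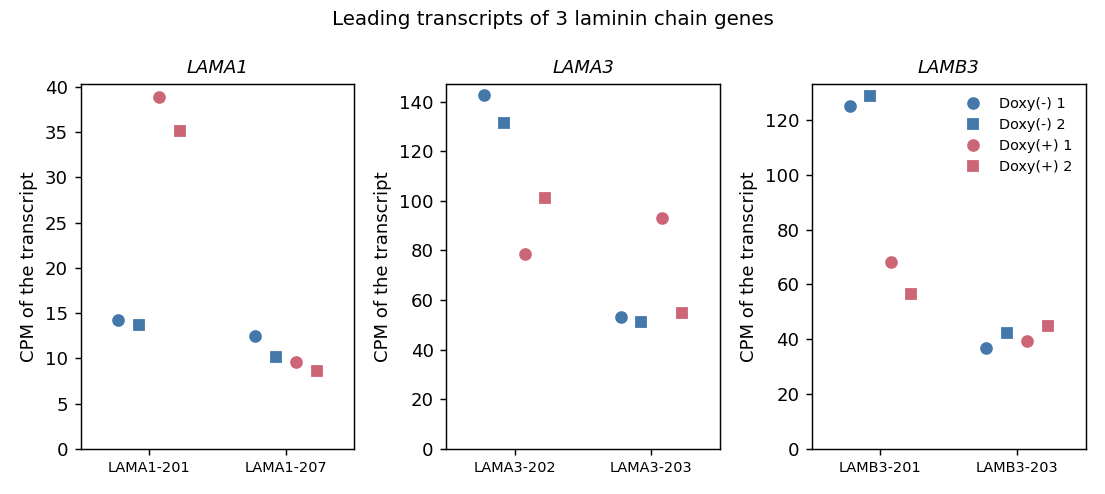
Level of leading transcripts of LAMA1, LAMA3 and LAMB3 in each library, in CPM from 0. LAMA1-201 is higher and LAMB3-201 lower in both Doxy(+) libraries, while LAMB3-203 overlaps between the groups and the Doxy(+) libraries part on LAMA3-203, at 93.3 and 54.9 CPM.

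The other beta chains differed less. LAMB1 (chromosome 7, 107923799 to 108003213, minus strand), the most widespread beta chain, stood at 687 and 708 CPM in Doxy(-) against 689 and 686 CPM in Doxy(+). The groups overlapped and the log2 fold change was -0.02 (SE 0.0293). Its exons share 300 bases with DLD on the other strand. LAMB2 (chromosome 3, 49121114 to 49133118, minus strand), the beta chain of the mature glomerular basement membrane and of laminin-521, stood at 146 CPM in both Doxy(-) libraries and at 130 CPM in both Doxy(+) libraries. The log2 fold change was -0.17 (SE 0.0376), and its call was lost without Doxy(+) 1, at -0.17, without Doxy(+) 2, at -0.18, and with DESeq2, the tool of the study, at -0.17, which left 4 lower members. LAMB4, not a member, held at most 3 reads in any library.

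Among the gamma chains, LAMC1 (chromosome 1, 183023420 to 183145592, plus strand), the partner of most laminin trimers, stood at 930 and 953 CPM in Doxy(-) against 747 and 749 CPM in Doxy(+). The Doxy(+) libraries were lower by more than the spread of either group, with means of 941 ± 16.5 and 748 ± 0.957 CPM and a log2 fold change of -0.33 (SE 0.0279). LAMC1-201 held most of these reads, at 865 and 860 CPM in Doxy(-) against 695 and 696 CPM in Doxy(+). LAMC3 stood at 92.2 and 90.04 CPM in Doxy(-) against 74.0 and 76.2 CPM in Doxy(+) (log2 fold change -0.28, SE 0.0487).

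**Figure D3:**
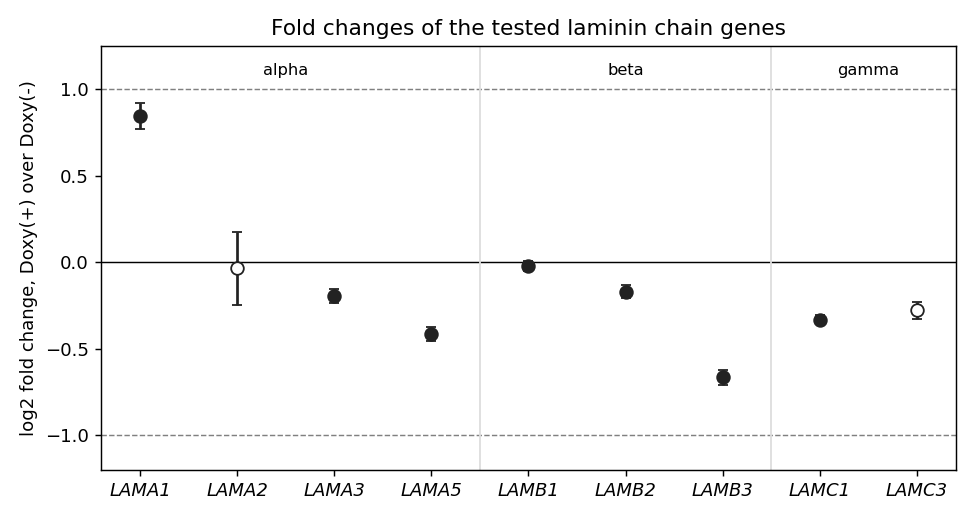
Log2 fold change, Doxy(+) over Doxy(-), of 9 laminin chain genes that passed the low-count filter, from edgeR, with bars of 1 standard error. Filled points are members, open points are LAMA2 and LAMC3, and dashed lines mark a log2 fold change of 1 in size. LAMA1 lies at 0.85, LAMB1 near 0, and LAMB3, at -0.67, is the lowest of those plotted.

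Summed per length, the beta chains came to 361 and 366 TPM in Doxy(-) and to 335 and 325 TPM in Doxy(+), and the alpha chains to 141 and 124 TPM in Doxy(-) and to 98.8 and 107 TPM in Doxy(+). The groups did not overlap in either sum, each taken over all transcripts, including forms with retained introns. With protein-coding transcripts alone the alpha sums were no longer apart. LAMA3 then stood at 42.2 and 29.8 TPM in Doxy(-) against 28.0 and 36.8 TPM in Doxy(+). In all 4 libraries the beta chains outnumbered the alpha chains.

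The listed chains of laminin-332, LAMA3 and LAMB3, were then set against the others. The gene sum of LAMA3 was used, although nearly all its reads on full-length coding transcripts fell on the long forms. LAMA3 and LAMB3 had a mean log2 fold change of -0.43, and the other 5 tested members (LAMA1, LAMA5, LAMB1, LAMB2 and LAMC1) had one of -0.02. The difference of the means was -0.41. In single libraries, the mean log2 CPM of LAMA3 and LAMB3 minus that of the other 5 came to -0.22 and -0.18 for Doxy(-) against -0.59 and -0.63 for Doxy(+), with no overlap. The split did not run cleanly between the chains, however. LAMA5 and LAMC1, outside laminin-332, were lower by more than LAMA3, and LAMA1 was the only higher gene among the others. Without LAMA1 the difference was -0.20. On TPM it was -0.26. Between chains of 1 kind, the log2 ratio of LAMB3 to LAMB1 in CPM went from -2.03 and -2.02 in Doxy(-) to -2.65 and -2.68 in Doxy(+). The log2 ratio of LAMA3 to LAMA5 went from -0.25 and -0.19 to 0.03 and -0.04, since LAMA5 was lower by more than LAMA3. The log2 ratio of LAMA1 to LAMA5 went from -3.40 and -3.44 to -2.12 and -2.21.

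To place the chains among the genes they work with, 5 lists were counted in the same fit. Beside them, 9.53% of all 13569 tested genes fell and 9.76% rose at an adjusted p under 0.05. The lists are short, and nothing beyond the counts is read from them. Laminin receptors bind the alpha chains at the cell surface, and 2 of 11 fell and 0 rose, with a median log2 fold change of -0.001. Those 2 form the integrin alpha 3 beta 1, a receptor of laminin-332 and laminin-511 that is prominent in tubule cells. ITGA3 stood at 692 and 691 CPM in Doxy(-) against 547 and 553 CPM in Doxy(+), a log2 fold change of -0.33 (edgeR adjusted p 0.000898). ITGB1 went from 1163 and 1221 CPM to 1002 and 1015 CPM (-0.24, edgeR adjusted p 0.00506), and with limma on TPM its adjusted p was 0.0528 and 0.0545. The integrin alpha 6 beta 4 of hemidesmosomes did not pass, with ITGA6 at -0.001 (edgeR adjusted p 0.997) and ITGB4 at 0.01 (edgeR adjusted p 0.946). DAG1, which encodes dystroglycan, had a log2 fold change of -0.09 (edgeR adjusted p 0.421).

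Hemidesmosome genes, which include ITGA6, ITGB4 and CD151 of the list above, counted 8, of which 5 were tested, 1 fell and 0 rose, with a median of -0.15. PLEC, which encodes the linker protein plectin, fell from 369 and 350 CPM to 249 and 250 CPM (log2 fold change -0.53, edgeR adjusted p 0.000592). KRT5 and KRT14 were at 0 in all 4 libraries. The list of proteases that process laminin or activate plasmin also holds PLAUR, a receptor, and SERPINE2, an inhibitor, and all its genes are counted as proteases here. Of its 10 genes, 9 were tested, 3 fell and 0 rose, with a median of -0.22. PLAT, a plasminogen activator that was known from earlier results when the list was written, fell from 69.4 and 63.8 CPM to 40.0 and 37.6 CPM (log2 fold change -0.78, edgeR adjusted p 0.00113). BMP1, a protease that trims laminin chains, fell by 0.35 on the log2 scale (edgeR adjusted p 0.0115) and PLAUR, the receptor of urokinase, by 0.25 (edgeR adjusted p 0.0238). Both lost their call without Doxy(+) 1 and without Doxy(+) 2, BMP1 at -0.38 and -0.33 and PLAUR at -0.22 and -0.29. Both also lost it with limma on TPM and with length-scaled counts, and PLAUR with DESeq2 (adjusted p 0.128).

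Of 22 other components of basement membranes, 17 were tested, 5 fell and 2 rose, with a median log2 fold change of -0.05. NTN4, a netrin that binds the gamma chains of laminin, fell from 72.3 and 74.2 CPM to 38.5 and 39.8 CPM (log2 fold change -0.91, edgeR adjusted p 0.000337), and NPNT, a ligand of integrin alpha 8 in the kidney, fell by 0.52 on the log2 scale (edgeR adjusted p 0.0015). AGRN and SPARC, named after their values were seen, fell by 0.29 (edgeR adjusted p 0.00348) and 0.21 (edgeR adjusted p 0.00466), SPARC not without Doxy(+) 1 (edgeR adjusted p 0.0542). HSPG2, which encodes perlecan, fell by 0.12 (edgeR adjusted p 0.0413), and its call was lost without Doxy(+) 1, at -0.15, and without Doxy(+) 2, at -0.09. The 2 higher genes were COL4A5 (0.47, edgeR adjusted p 0.0308) and FREM2 (0.45, edgeR adjusted p 0.0224). COL4A5 turned to -0.26 with counts scaled by transcript length, and both lost their call with DESeq2 and without Doxy(-) 2, Doxy(+) 1 or Doxy(+) 2, where COL4A5 lay at 0.39, 0.38 and 0.55 and FREM2 at 0.39, 0.48 and 0.41.

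Among the network partners of laminin, COL4A1, COL4A2 and NID1 were not called, unlike AGRN and HSPG2 above. COL4A1 stood at 741 and 726 CPM in Doxy(-) against 732 and 723 CPM in Doxy(+) (log2 fold change -0.01, edgeR adjusted p 0.812). COL4A2 likewise came to -0.05 (edgeR adjusted p 0.215). NID1, which encodes nidogen-1, the bridge between the gamma 1 chain and type IV collagen, stood at 264 and 265 CPM in Doxy(-) against 283 and 280 CPM in Doxy(+) (0.09, edgeR adjusted p 0.105).

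**Figure D4:**
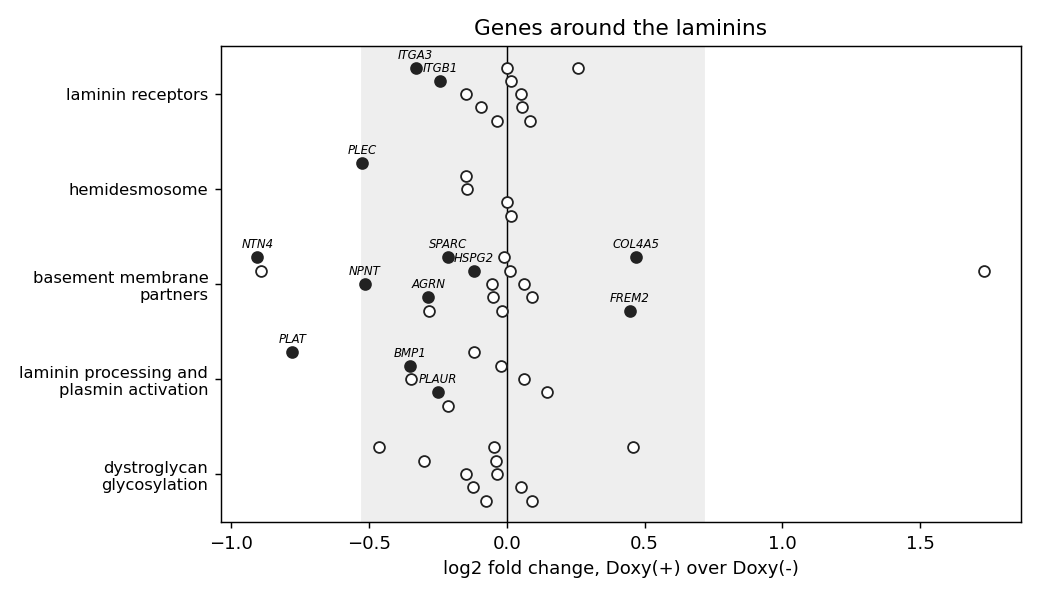
Log2 fold change, Doxy(+) over Doxy(-), of the tested genes of 5 lists, 1 point per gene. Filled and named points have an edgeR adjusted p under 0.05, open points do not, vertical offsets within a list carry no value, and the grey band, from -0.53 to 0.72, holds 90% of all tested genes. Of the filled points, PLAT and NTN4 lie below the band. The open points of NID2, at -0.89, and FBLN2, at 1.73, also lie outside it, and most other points lie within.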

How the data were processed

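Polyadenylated RNA of 2 Doxy(-) and 2 Doxy(+) HK-2 libraries was prepared with a stranded TruSeq kit. The submitters' processing notes name Trim Galore 0.6.6, cutadapt 2.5 and STAR 2.7.9a, and the study's methods name RSEM and DESeq2, while the tables deposited have the columns of kallisto. Quantifier version, transcript release and use of strand are not given in the sources used here. The authors deposited estimated counts per transcript, not normalized, and TPM values scaled by their quantifier. A read shared by several transcripts is divided between them, so values of single transcripts are less certain than gene sums.

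Of 180253 transcript identifiers, 150691 (83.6%) were matched to GENCODE 44 on hg38, and the rest, with 9.66% to 9.89% of the reads of a library, were left out. Estimated counts were summed over 34080 genes, rounded and entered into the quasi-likelihood test of edgeR 4.0.16 (R 4.3.3, TMM, filterByExpr, group only, Benjamini-Hochberg over 13569 genes), which was tested on simulated data. The common biological coefficient of variation was 6.53%, and libraries of a group were separate by their counts (chi-square per degree of freedom 4.18 and 2.98). DESeq2 1.42.0, limma 3.58.1 on log2(TPM + pseudocount) and further alternatives were run. Intervals and floors cover counting error only, since reads carried no molecular identifiers.

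Members and lists were chosen with earlier results of these data known. Some genes of these families are not reported here and were left out of lists, counts and sums, not of the fit. Named were the laminin chain genes given, TFE3, PRCC, in each list the 4 called genes with the largest change and a mean of at least 1 CPM, 9 set partners (COL4A1, COL4A2, NID1, HSPG2, ITGA3, ITGA6, ITGB1, ITGB4 and DAG1), and for each of 2 profiles the 3 genes, of at least 10 CPM, nearest to it. Promoter windows come from RefSeq (GRCh38.p14).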

Additional observations from a re-analysis of the deposited data

How the results depend on the processing

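Laminin chain genes called by edgeR stayed called in 76 of 98 comparisons with an alternative, with 0 changes of sign. Those not called stayed so in all 28, with 3 changes of sign (LAMA2 0.074 without Doxy(-) 2, LAMB1 0.004 by both limma settings). The other named genes that were called stayed called in 147 of 182, with 3 changes of sign, all of COL4A5, and those not called stayed so in all 91, with 14 changes of sign. LAMA5 and LAMB3 were called in all 14 alternatives. With limma on log2(TPM + 1) and log2(TPM + 0.1), 2 members were lower and 0 higher, since LAMA1, LAMA3, LAMB2 and LAMC1 were not called. The same settings gave 1 lower laminin receptor, 3 lower and 0 higher basement membrane genes, 1 lower protease, and a difference between LAMA3 and LAMB3 and the other members of -0.261 and -0.279. Length-scaled counts gave 3 lower members, 0 higher basement membrane genes, 1 lower protease and a difference of -0.278. DESeq2 gave 0 higher basement membrane genes, 4 lower members (LAMB2 was lost) and 2 lower proteases (PLAUR was lost). COL4A5 was reversed under limma, at -0.202 and -0.23, and with length-scaled counts, at -0.257. The causes of these moves were not tested. An adjusted p under 0.01 left 3 lower members, 0 higher basement membrane genes and 1 lower protease, and without a fold change limit 6 members were called. Leaving out 1 library gave 3 to 5 lower members (3 without Doxy(+) 1 or 2, where LAMA3 and LAMB2 were lost), 1 to 4 lower proteases (1 without Doxy(+) 1 or 2), 3 to 6 lower basement membrane genes (3 without Doxy(+) 1), 0 to 2 higher basement membrane genes (1 without Doxy(-) 2, 0 without Doxy(+) 1 or 2), 2 to 3 lower receptors, 1 to 2 lower hemidesmosome genes (2 without Doxy(-) 2 or Doxy(+) 1) and 0 to 1 higher hemidesmosome genes (1 without Doxy(+) 2).

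By settings chosen after the data were seen, the difference between LAMA3 and LAMB3 and the other members was -0.197 without LAMA1 and -0.544 with protein-coding transcripts only, which also put 1 member past both limits. The libraries share only a number. The deviations of those numbered 1 correlated at -0.0263, and the replicate block moved 2 list counts, to 1 lower dystroglycan glycosylation gene and to 6 lower basement membrane genes, and 0 of the laminin calls. With 4.06 reads or fewer in Doxy(+), LAMA4 was limited by depth.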

Other observations

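Genes that attach the laminin-binding sugar chains to dystroglycan formed a further list of 12, of which 11 were tested. By edgeR 0 rose and 0 fell, with 3 at an unadjusted p under 0.05, and by DESeq2 0 were called. Of all tested genes, 9.76% rose and 9.53% fell by edgeR. The median log2 fold change was -0.05. B4GAT1, which primes such a chain and was named after its values were seen, had a log2 fold change of 0.46 (edgeR adjusted p 0.109).

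By profile over the 4 libraries (log2 CPM centred on its mean), the genes nearest to the mean of LAMA3 and LAMB3 were C2CD2, ARL3 and PDLIM1, at Euclidean distances of 0.0124, 0.0166 and 0.0258. Nearest to the mean of the other tested members were EIF2AK4, CBX5 and NMD3, at distances of 0.00816, 0.0084 and 0.0092, each with a log2 fold change between -0.02 and -0.01. That mean joins LAMA1, at 0.85, with LAMA5 at -0.41, LAMC1 at -0.33 and LAMB2 at -0.17. Only LAMB1, at -0.02, was near flat itself, so the mean does not describe most of these members. With 4 points shared by every gene, such a likeness is a description only. COL17A1, a collagen of hemidesmosomes that was named after its values were seen, held 1.72 and 0.52 reads in Doxy(-) against 28.1 and 4.05 reads in Doxy(+), so most of its reads came from 1 library.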
